A study of Mus musculus with 42 samples.

Results

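The Nrf2 and quinone or oxidative stress genes are 10 genes of the 20651 named genes on the array, taken by gene symbol and followed in lung, liver and forestomach after oral dosing with BkF. BkF is benzo(k)fluoranthene, which belongs to the polycyclic aromatic hydrocarbons formed when organic matter burns. They are Nqo1 and Aldh3a1, which are also driven by the aryl hydrocarbon receptor (AhR), Nfe2l2 and Keap1, which encode the transcription factor Nrf2 and its inhibitor, and the Nrf2 targets Hmox1, Gclc, Gclm, Srxn1, Txnrd1 and Slc7a11. The 10 genes have 12 probes, since Aldh3a1 and Hmox1 have a second probe each. All animals were male MutaTMMouse, a transgenic strain made for mutation assays, aged about 11 weeks and gavaged daily for 28 days. The vehicle group (D0) received olive oil alone, and the exposed groups received BkF in olive oil, at 25 (D1), 50 (D2) or 100 (D3) mg per kg of body weight each day. Tissues were taken 72 h after the final dose, and RNA came from random sections of whole frozen tissue. There were 4, 3, 4 and 4 mice at D0, D1, D2 and D3 for lung, 4, 2, 3 and 4 for liver, and 4, 3, 4 and 3 for forestomach, which makes 42 arrays from 15 mice, 12 of them with all 3 tissues. Each mouse is a separate animal, and mice are named here by the numbers of the labels.

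Nrf2 is a transcription factor that Keap1 holds in the cytoplasm and hands to the proteasome. Electrophiles and oxidants modify cysteines of Keap1, Nrf2 then accumulates, pairs with a small Maf protein and binds antioxidant response elements of genes for glutathione synthesis, thioredoxin reduction, haem breakdown and quinone detoxification. The AhR is the receptor that polycyclic aromatic hydrocarbons bind, and with its partner ARNT it switches on Cyp1a1, Cyp1b1, Ahrr and Tiparp. Nqo1, a quinone reductase, and Aldh3a1, an aldehyde dehydrogenase, carry elements of both pathways. Genes that answer to Nrf2 and not to the AhR therefore separate these pathways better than such shared targets do.

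Each value is a log2 ratio of the tissue RNA (Cy5) over a common reference RNA pooled from 11 mouse cell lines (Cy3), so a level of 0 equals the reference, and a difference between groups of 1 is a doubling. In whole tissue, fewer cells of a type and less RNA per cell cannot be told apart. A difference is called here when its adjusted p did not exceed 0.05 and its size reached 1.5-fold, and the dose trend and the differences between tissues in the response were called on the adjusted p alone. The share of probes well above background was 40.54% to 59.95% in lung, 38.35% to 57.6% in liver and 28.07% to 45.98% in forestomach. Slc7a11 passed this limit on 1 of 15 lung arrays, 0 of 13 liver arrays and 6 of 14 forestomach arrays, and was therefore tested across doses in forestomach alone. The other 9 members were well above background on every array. Surfactant and club cell markers were high in every lung array (mean log2 ratio 5.70 to 6.81), hepatocyte markers in every liver array (7.27 to 7.94) and squamous keratins in every forestomach array (3.25 to 5.13). Some arrays also carried markers of other tissues. Glandular stomach markers were high in 9 of 14 forestomach arrays (4.76 to 6.02, against 0.51 to 1.71 in the other 5), among them all 3 at D1, vehicle mice 2 and 3, D2 mice 12, 13 and 15 and D3 mouse 17. In the same 9 arrays the mean of the hepatocyte markers was at 1.04 to 3.51, against 0.03 to 0.17 in the other 5. At most 3 of these 4 markers were well above background in a forestomach array, against 4 in every liver array. What is written below of arrays high or low in glandular markers holds for the hepatocyte marker mean too. The part of the hepatocyte markers in the results was not tested. Glandular markers were also at 3.69 in the lung of D1 mouse 7 and at 1.21 in that of D1 mouse 8, against a median over all lungs of 0.41. The lung of D2 mouse 12 had skeletal muscle (4.96), squamous (3.90) and macrophage (3.93) markers, against medians over all lungs of -0.45, -0.38 and 0.82, and the liver of D3 mouse 17 had skeletal muscle markers at 4.16. Liver arrays lie on slides of their own and were read with another version of the scanner software than lung and forestomach, so tissue and slide cannot be told apart for liver.

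Stretches upstream of gene starts are shown for 4 of the members with a window and values by dose below, beside the AhR target Cyp1a1. Each is the 250 bases before the start in RefSeq on the build GRCm38.p6, printed 5′ to 3′ on the strand of the gene. Capitals mark matches on either strand to GCGTG, the core that the AhR binds with ARNT, to TGACNNNGC, the core of the antioxidant response element, or to TGAGNNNGC, a form of that element added to the search after the windows had been read.
Nqo1, chr8:107403206-107403455, minus strand: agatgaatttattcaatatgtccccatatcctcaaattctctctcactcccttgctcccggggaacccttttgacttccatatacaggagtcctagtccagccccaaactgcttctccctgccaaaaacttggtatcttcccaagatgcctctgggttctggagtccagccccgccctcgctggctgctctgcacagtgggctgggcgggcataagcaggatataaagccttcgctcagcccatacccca
Nfe2l2, chr2:75704664-75704913, minus strand: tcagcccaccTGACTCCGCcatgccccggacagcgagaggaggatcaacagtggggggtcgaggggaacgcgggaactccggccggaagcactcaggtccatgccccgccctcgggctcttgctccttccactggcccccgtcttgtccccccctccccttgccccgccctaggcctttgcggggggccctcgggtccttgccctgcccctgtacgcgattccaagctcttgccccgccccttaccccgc
Gclm, chr3:122245307-122245556, plus strand: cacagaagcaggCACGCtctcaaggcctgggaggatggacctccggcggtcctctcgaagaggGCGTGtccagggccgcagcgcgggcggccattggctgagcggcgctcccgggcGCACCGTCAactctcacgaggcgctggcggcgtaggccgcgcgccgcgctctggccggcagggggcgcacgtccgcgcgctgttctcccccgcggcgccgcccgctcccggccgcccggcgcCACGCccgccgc
Srxn1, chr2:152105274-152105523, plus strand: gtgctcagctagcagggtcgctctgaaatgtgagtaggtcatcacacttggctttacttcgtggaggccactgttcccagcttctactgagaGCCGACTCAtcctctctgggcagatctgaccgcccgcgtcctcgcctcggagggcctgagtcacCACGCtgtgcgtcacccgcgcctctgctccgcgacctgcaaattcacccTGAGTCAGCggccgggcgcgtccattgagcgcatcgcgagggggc
Cyp1a1, chr9:57697363-57697612, plus strand: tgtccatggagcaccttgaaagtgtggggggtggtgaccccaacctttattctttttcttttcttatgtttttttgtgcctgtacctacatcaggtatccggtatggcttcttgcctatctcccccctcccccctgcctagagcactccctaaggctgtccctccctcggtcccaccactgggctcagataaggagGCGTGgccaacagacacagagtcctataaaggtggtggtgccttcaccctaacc
The Nqo1 window held none of these letters. In the Gclm window GCGTG stood 3 times and TGACNNNGC once, 134 bases before the start. In the Srxn1 window GCGTG stood once, 94 bases before the start, between TGAGNNNGC matches at 158 and 45 bases. The Nfe2l2 window had TGACNNNGC 240 bases before the start and no GCGTG, and the Cyp1a1 window had GCGTG 54 bases before the start and neither form of the antioxidant element. Windows were matched for 7 of the 10 members, and not for Aldh3a1, Hmox1 and Gclc. Of the windows not shown, Keap1 had GCGTG alone, Slc7a11 TGAGNNNGC alone, and Txnrd1 had 3 alternative starts, all 3 with GCGTG and 1 with TGACNNNGC. The windows of Cyp1b1, Ahrr and Tiparp each held GCGTG, and that of Tiparp also held TGAGNNNGC, 119 bases before the start. Over all 32851 windows of the same length, 28.2% held GCGTG, 10.2% TGACNNNGC, 14.4% TGAGNNNGC and 23% either form of the antioxidant element, so matches of this kind are frequent. A match is a description of the letters and was not tested as a binding site.

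Without BkF the 3 tissues held these genes at very different levels. Quinone reductase was highest in forestomach and glutathione synthesis genes highest in liver. In vehicle mice the mean Nqo1 log2 ratio was 3.00 ± 0.70 (SD, n = 4) in forestomach, against -1.30 ± 0.28 in lung and -1.52 ± 0.26 in liver. The lowest forestomach value, 2.09, lay far above the highest lung value, -1.08. The forestomach level was 19.7-fold above lung (adjusted p = 1.8e-09, limma) and 23.1-fold above liver (adjusted p = 2.1e-10), while lung and liver differed by 0.23 on the log2 scale (adjusted p = 0.70). Aldh3a1 followed the same order with a wider gap between lung and liver. Measured with 1 probe in all tissues, its mean was 2.33 ± 0.18 in forestomach, 0.40 ± 0.12 in lung and -0.99 ± 0.14 in liver, so that forestomach stood 3.83-fold above lung (adjusted p = 2e-08) and 10-fold above liver (adjusted p = 2e-14), and lung 2.61-fold above liver (adjusted p = 4.1e-06). The other Aldh3a1 probe gave 5.63-fold, 23.5-fold and 4.18-fold for the same differences. Hmox1, which encodes the inducible haem oxygenase, was also highest in forestomach (1.01 ± 0.33), 5.19-fold above lung (-1.36 ± 0.19, adjusted p = 2.7e-06) and 8.99-fold above liver (-2.16 ± 0.21, adjusted p = 5.8e-09). Its second probe gave smaller folds, 2.16 and 2.62.

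Glutathione synthesis ran the other way. Gclm, the modifier subunit of glutamate-cysteine ligase, had a mean log2 ratio of 2.48 ± 0.17 in vehicle liver, 0.43 ± 0.36 in forestomach and -0.47 ± 0.15 in lung. Liver stood 7.76-fold above lung (adjusted p = 1.4e-16) and 4.14-fold above forestomach (adjusted p = 2.7e-12). With the scanner software's ratios these were 15.9-fold and 6.57-fold. Gclc, the catalytic subunit, was at 2.98 ± 0.27 in liver and 2.36 ± 0.47 in lung, far above its 0.41 ± 0.43 in forestomach, with folds of 5.91 (adjusted p = 3.1e-10) and 3.85 (adjusted p = 2.1e-07). The step of Gclc between lung and liver was 1.53-fold (adjusted p = 0.045), and 1.97-fold with the scanner software's ratios (adjusted p = 0.0022). It was not called in 8 alternatives. Among them was leaving out any of lung mice 1, 3 and 4 or liver mice 1, 3 and 4 (adjusted p 0.058 to 0.21). The subunits of this enzyme did not share their order. Lung held Gclc nearer to the liver level than to that of forestomach and had the lowest Gclm. Slc7a11, the cystine importer, cleared the background limit in 2 of the 4 forestomachs of vehicle mice and in no vehicle liver, so its difference between liver and forestomach, -0.65 (adjusted p = 0.0022) or -1.90 with the scanner software's ratios, has no measured liver level behind it. That call is lost without forestomach mouse 1, whose value of 0.73 was the highest (difference -0.48, adjusted p = 0.023).

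Of the redox and regulator genes, Nfe2l2 was called between all 3 tissues and Keap1 between none of them. Txnrd1, cytosolic thioredoxin reductase, was 2.06-fold higher in liver (0.01 ± 0.04) than in lung (-1.03 ± 0.20, adjusted p = 5.7e-06) and 2.05-fold higher than in forestomach (-1.02 ± 0.32, adjusted p = 7.7e-06). Lung and forestomach did not differ in Txnrd1 beyond their spread (difference -0.01, adjusted p = 0.98). Srxn1, sulfiredoxin, which repairs oxidised peroxiredoxins, was lowest in lung (-0.75 ± 0.25), 1.57-fold below liver (-0.10 ± 0.29, adjusted p = 0.0036) and 1.85-fold below forestomach (0.13 ± 0.13, adjusted p = 0.00022). Without liver mouse 1 the Srxn1 step between lung and liver was -0.57 and under the fold limit. Nfe2l2 was at 1.75 ± 0.29 in forestomach, 0.91 ± 0.23 in lung and -0.53 ± 0.26 in liver, and all 3 steps were called (1.80-fold, 2.71-fold and 4.88-fold, adjusted p 4.2e-11 to 0.0015). Keap1 was the most even member, with means of 0.89 ± 0.28, 0.59 ± 0.14 and 0.40 ± 0.27 in lung, liver and forestomach and no difference past both limits (the largest was 1.41-fold, adjusted p = 0.0059). Of the members, 6 of 9 were called between lung and liver, where 40.8% of all probes were, 7 of 10 between lung and forestomach (33.5%), and 8 of 10 between liver and forestomach (37.5%).

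**Figure D1:**
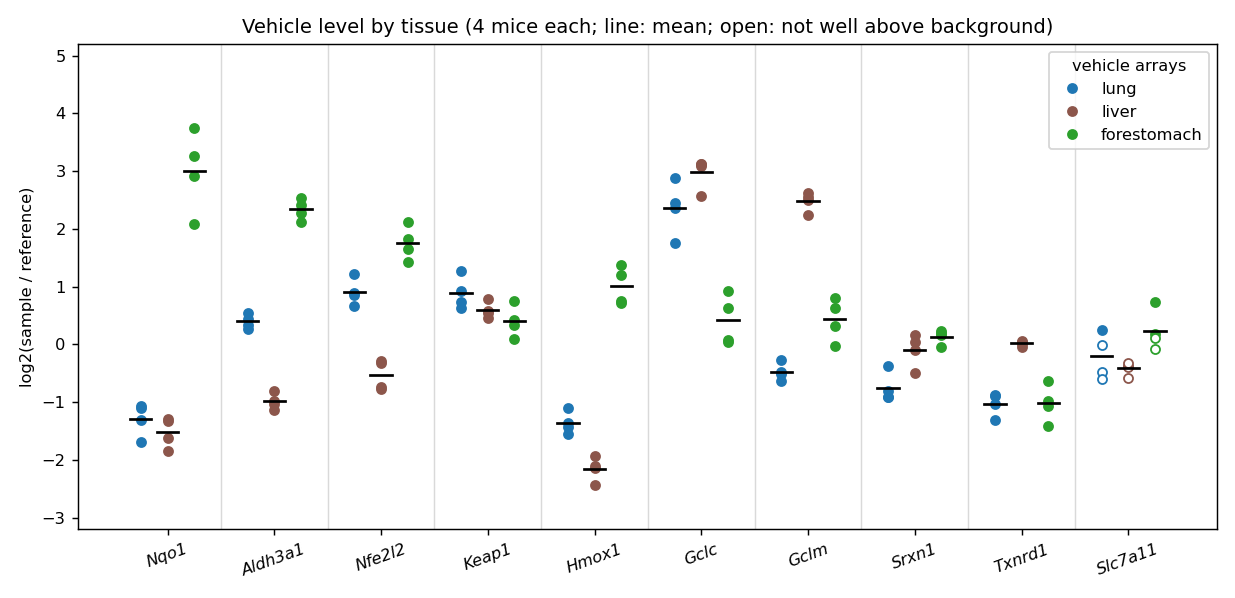
Log2 ratio to the reference of each of the 10 genes in vehicle (D0) lung, liver and forestomach, with 1 point per mouse (n = 4 per tissue), 1 probe per gene in all tissues, and open points where the probe was not well above background. Nqo1 in forestomach (mean 3.00) lies apart from lung (-1.30) and liver (-1.52), and Gclm in liver (2.48) apart from the other tissues.

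Glandular stomach RNA moved with some of these vehicle levels. Of the 4 vehicle forestomachs, mice 2 and 3 carried it and mice 1 and 4 did not. With mice 1 and 4 alone as the forestomach group, Nqo1 was 13.9-fold above lung (adjusted p = 1.7e-06) and 16.3-fold above liver (adjusted p = 2.8e-07), and Hmox1 6.28-fold and 10.9-fold. In the same setting the step of Nfe2l2 between lung and forestomach lost its call (difference -0.63, adjusted p = 0.053), while Keap1, higher in lung (0.64, adjusted p = 0.0038), and Slc7a11, higher in forestomach (-0.63, adjusted p = 0.016), gained one.

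After exposure no member passed the test at any dose in any tissue in the main fit, which has no slide block. With slide as a block Nqo1 was called in lung at D2, at D3 and for the trend. The counts that follow are from the main fit. In lung 0 of 9 members were called at D1, D2 and D3, where 0%, 0.0153% and 0.0336% of all probes were, and 0 of 9 had a called dose trend (0.0367%). Liver gave 0 of 9 at D1, D2 and D3 and for the trend, against 0%, 0.0427%, 0.0525% and 0% of all probes. In forestomach 0 of 10 were called at D1, D2 and D3 and for the trend, and so were 0%, 0%, 0% and 0% of all probes. With so few calls over the whole array, a count of 0 among 10 genes says little by itself, and the values below are given as differences with their errors. At an unadjusted p below 0.05, limma gave 1, 2, 4 and 5 members in lung for D1, D2, D3 and the trend, 0, 3, 1 and 1 in liver, and 2, 1, 0 and 0 in forestomach. Over all probes those counts, in the same order, were 577 (1.76%), 1390 (4.25%), 2622 (8.02%) and 2773 (8.48%) in lung, 467 (1.53%), 3261 (of 30449 probes), 2376 (7.8%) and 2622 (8.61%) in liver, and 3070 (12.1%), 1920 (7.59%), 557 (2.2%) and 712 (2.81%) in forestomach. Of the members in lung, 8 of 9 had a higher mean at D3 than at D0, with a median difference of 0.29 against 0.0039 over all probes. In liver 5 of 9 were higher (median 0.04) and in forestomach 6 of 10 (median 0.10).

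**Figure D2:**
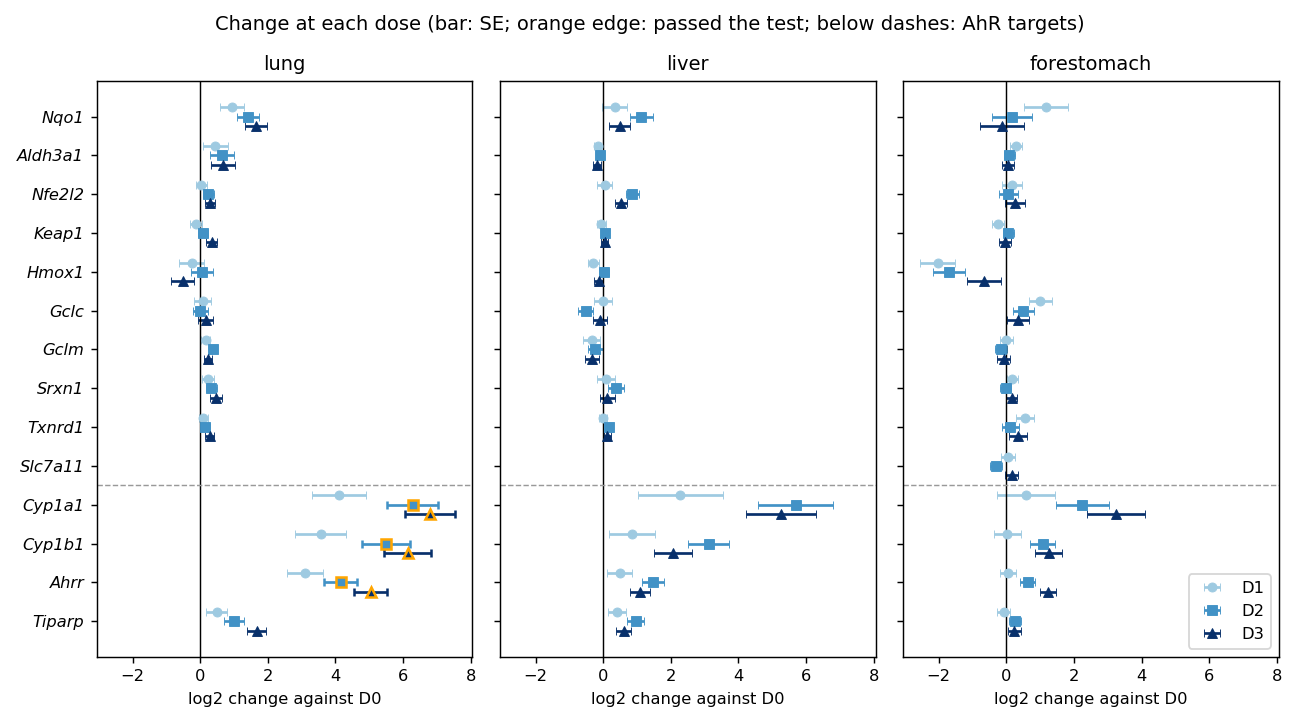
Change from D0 (log2) of the members and of 4 AhR targets at D1, D2 and D3 in each tissue, with bars of 1 standard error of the limma fit, the AhR targets below the dashed line and an orange edge where a change passed the test. In lung at D3 Nqo1 stands at 1.65 and the Nrf2 targets between -0.51 and 0.47, while Cyp1a1 is at 6.81. The fitted changes of Ahrr in lung and of Ahrr, Cyp1a1 and Cyp1b1 in liver start from vehicle levels not well above background on any array.

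Nqo1 was the member with the largest difference in lung. Its log2 ratios in vehicle lungs were -1.11, -1.31, -1.69 and -1.08, and at D1 they were -0.64, 0.26 and -0.70. At D2 the values were 0.15, 0.87, 0.27 and -0.83, and at D3 they were 0.38, 0.78, -0.23 and 0.47. Every exposed lung lay above every vehicle lung, from the lowest dose on. Of the 9 members Nqo1 was the only 1 whose D3 lungs all lay above the D0 lungs, a pattern that 2.94% of all probes showed, and the same held at D1 (1.73% of probes) and D2 (1.2%). The mean difference from D0 was 0.94 ± 0.35 (SE) at D1, 1.41 ± 0.32 at D2 and 1.65 ± 0.32 at D3, the last of which is 3.13-fold with a 95% interval of 0.96 to 2.33 on the log2 scale. None of these passed the limit after adjustment over 32695 probes (adjusted p = 1, 0.50 and 0.14, limma). The 4 slides of the lung arrays each held D0, D2 and D3 mice. Within slides Nqo1 was higher at D3 on 4 of 4, by 1.46 to 2.09, and at D2 on 4 of 4, by 0.86 to 2.18. With slide as a block the standard error fell to 0.19 and the differences at D2 and D3 were called (adjusted p = 0.026 and 0.015), as was the trend of 1.62 per 100 mg/kg-bw/day (adjusted p = 0.032, against 0.21 without the block). That block called 11, 26 and 22 of all 32695 probes at D2, at D3 and for the trend, against 5, 11 and 12 without it. With only the D0 and D3 lungs in the fit the D3 difference was also called (adjusted p = 0.033), as 1 of 15 probes. Without the lungs of mice 7 and 12, which carried markers of other tissues, the D1 difference was 1.08 and that of D2 1.16 (adjusted p = 0.61). That of D3 remained 1.65 (adjusted p = 0.066). The highest D1 value, 0.26, was that of mouse 8, whose lung also had raised glandular markers. Without mouse 8 alone the D1 difference was 0.63. The part of these markers in the Nqo1 values was not tested.

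Aldh3a1 was higher on average in exposed lungs, with far more spread. Vehicle lungs lay close together at 0.43, 0.60, 0.44 and 0.32. The D1 lungs were at 1.42, 0.72 and 0.56, the D2 lungs at 0.68, 2.20, 0.42 and 1.07, and the D3 lungs at 1.23, 1.01, 0.43 and 1.84. Most exposed lungs thus lay above the vehicle range, but at each of D1, D2 and D3 a mouse stayed within it. The differences of 0.45 ± 0.37, 0.65 ± 0.35 and 0.68 ± 0.35 did not pass (adjusted p = 1, 1 and 0.66), and the second probe gave 0.42, 0.51 and 0.66. Without mouse 20 the D3 difference was 0.44. The highest value at D2 was that of mouse 12 and the highest at D1 that of mouse 7. Without mouse 12 the D2 difference was 0.28, and without mouse 7 that at D1 was 0.19. Squamous epithelium and glandular stomach markers were high in those same arrays, and forestomach holds Aldh3a1 at a higher level than lung. Their part in the Aldh3a1 values was not tested.

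**Figure D3:**
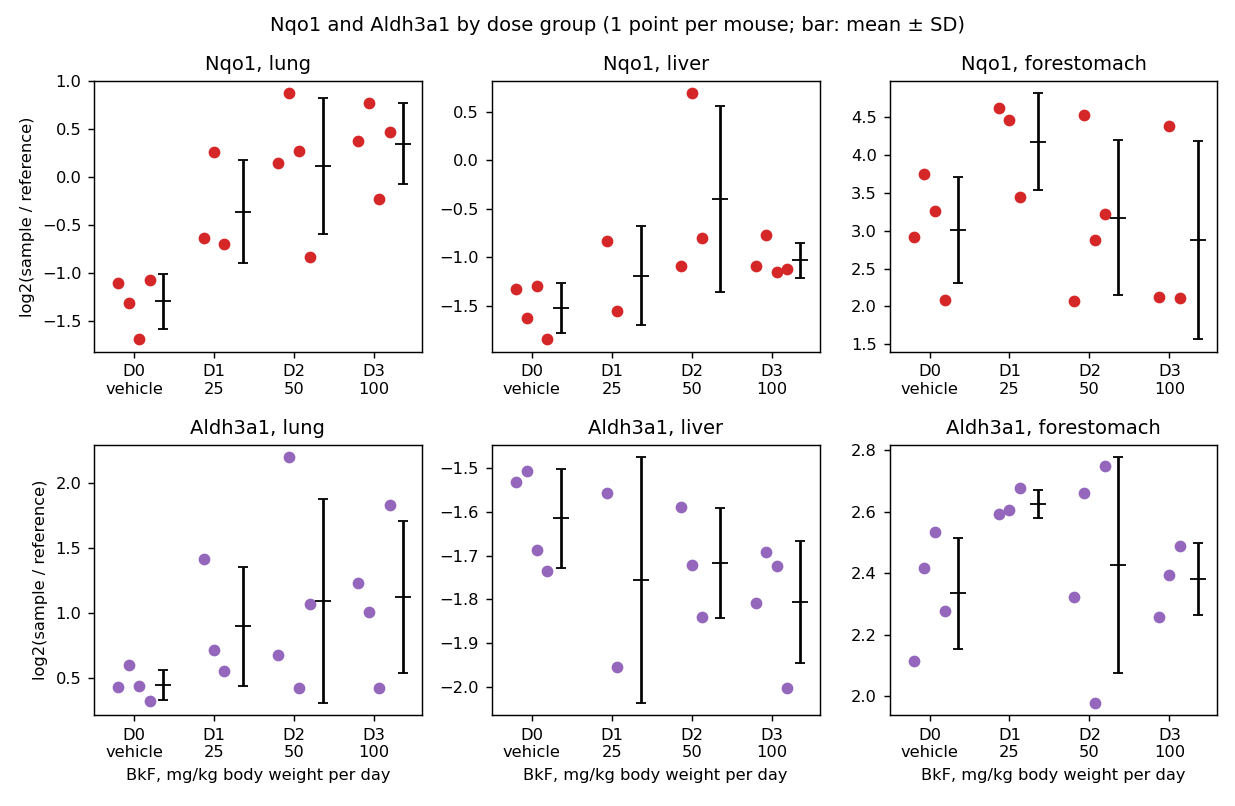
Log2 ratio to the reference of Nqo1 and Aldh3a1 by dose of BkF (mg/kg-bw/day) in lung, liver and forestomach, with 1 point per mouse and a bar for the mean ± SD of each group. Each panel has its own vertical axis, and the Aldh3a1 panel of forestomach shows another probe than those of lung and liver. For Nqo1 the exposed lungs lie above all 4 vehicle lungs, while the forestomach groups overlap.

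In liver the Nqo1 differences did not pass the test at any dose either. Vehicle livers were at -1.33, -1.63, -1.30 and -1.85, D1 livers at -0.83 and -1.55, D2 livers at -1.09, 0.69 and -0.80, and D3 livers at -1.09, -0.77, -1.15 and -1.12. The D2 and D3 livers all lay above the vehicle livers, as for 4.51% of all probes at D2 and 2.96% at D3, and 1 of the 2 D1 livers did. The differences were 0.33 ± 0.38 at D1, 1.12 ± 0.34 at D2 (adjusted p = 0.29) and 0.49 ± 0.31 at D3 (adjusted p = 0.73). Mouse 12 stood far above the other D2 livers, and without it the D2 difference was 0.58. Its liver also had the highest Cyp1a1 log2 ratio of all livers (7.15) and the lowest Gclc value (1.86). Aldh3a1 did not separate by dose in liver. It lay between -1.73 and -1.51 in vehicle livers and between -2.00 and -1.56 in exposed livers, with differences of -0.14, -0.10 and -0.19 (adjusted p = 1, 0.81 and 0.72).

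Forestomach started from a high Nqo1 level and no dose stood apart. Vehicle values were 2.91, 3.75, 3.26 and 2.09, D1 values 4.62, 4.46 and 3.45, D2 values 2.07, 4.53, 2.87 and 3.22, and D3 values 2.13, 4.39 and 2.11. The differences were 1.17 ± 0.64 (adjusted p = 0.47), 0.17 ± 0.59 and -0.13 ± 0.64. Glandular markers moved with these values. The 5 arrays low in glandular markers had Nqo1 between 2.07 and 2.91 and the 9 arrays high in them between 2.87 and 4.62, and all 3 D1 arrays were among the latter. With the glandular marker score as a covariate the Nqo1 differences were 0.32, -0.31 and 0.04. Aldh3a1 in forestomach ranged from 1.98 to 2.75 over all 14 arrays, with differences of 0.29, 0.09 and 0.05 (adjusted p = 0.51, 0.94 and 1). Aldh3a1, Gclc and Srxn1 were the 3 of 10 members whose D1 forestomachs all lay above the vehicle ones, as did 5.62% of all probes.

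Of the AhR targets compared, Cyp1a1 and Cyp1b1 had far larger differences than Nqo1 in the same lungs. Tiparp was close to Nqo1 at D3 and below it at D1 and D2 (0.49 and 1.01, against 0.94 and 1.41). Cyp1a1, the classic AhR-induced monooxygenase, had log2 ratios of 3.29, 2.35, 2.09 and 2.96 in vehicle lungs and of 9.43, 9.29, 9.73 and 9.47 at D3. It rose by 6.81 ± 0.75 (112-fold, adjusted p = 0.0034). Cyp1b1 rose by 6.14 ± 0.70 (adjusted p = 0.0037), and Ahrr, the AhR repressor, which was not well above background in vehicle lungs, was at least 26-fold higher (adjusted p = 0.0013), though its second, dimmer probe gave 0.96 (adjusted p = 0.17). Cyp1a1 lost its call with the ratios of the scanner software (4.37, adjusted p = 0.068). All 3 were also called at D2, where leaving out lung mouse 2, 11 or 13 ended each of these calls (adjusted p 0.059 to 0.075), as leaving out mouse 1 did for Cyp1b1 (0.060). The scanner software's ratios ended the D2 calls of Cyp1a1 (4.05, adjusted p = 0.19) and Cyp1b1 (5.80, adjusted p = 0.051) as well. Tiparp, an AhR-induced ADP-ribosyltransferase, was higher by 1.67 ± 0.29 at D3 (adjusted p = 0.074), and its second probe rose by 2.00 (adjusted p = 0.0099). In liver the D3 difference of Cyp1a1 was at least 29.8-fold (adjusted p = 0.13) and in forestomach it was 3.24 on the log2 scale (adjusted p = 1), where 1 of 4 vehicle arrays measured the gene well above background.

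Set out by class, the lung differences at D3 were 6.81 and 6.14 for Cyp1a1 and Cyp1b1, the AhR targets with a measured vehicle level besides Tiparp, and 1.67 for Tiparp. The shared targets Nqo1 and Aldh3a1 had a median of 1.16 and the regulators Nfe2l2 and Keap1 of 0.32. The 5 tested Nrf2 targets not classed under the AhR had a median of 0.22, with a range of -0.51 to 0.47. At D2 the last 3 medians were 1.03, 0.16 and 0.16. At D3 they were 0.15, 0.28 and -0.11 in liver and -0.04, 0.11 and 0.16 in forestomach. Within the shared targets Nqo1 (1.65) lay beside Tiparp, and Aldh3a1 (0.68) lay beside Srxn1 (0.47). The classes were set by known function within these pathways. Other regulators of the genes were not considered, and a difference between classes was not tested.

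Of the regulators, Nfe2l2 differed most in liver. Its log2 ratios were -0.29, -0.77, -0.73 and -0.33 in vehicle livers, -0.46 and -0.52 at D1, -0.02, 0.75 and 0.25 at D2, and 0.13, 0.26, -0.29 and -0.13 at D3. All D2 and D3 livers lay above the vehicle livers, though the lowest D3 value and the highest vehicle value both round to -0.29. The differences were 0.05 ± 0.22, 0.86 ± 0.19 and 0.53 ± 0.18 (adjusted p = 1, 0.18 and 0.48), with a 95% interval of 0.14 to 0.91 at D3. Without mouse 11 the D2 difference was 1.03 and was called (adjusted p = 0.048), and without mouse 12 it was 0.65. Nqo1, Nfe2l2 and Txnrd1 were the 3 of 9 members whose D3 livers all lay above the D0 livers, a pattern of 2.96% of all probes. In lung Nfe2l2 differed by 0.04, 0.24 and 0.29 from D0 (adjusted p = 1, 1 and 0.68) and in forestomach by 0.16, 0.06 and 0.26, with overlapping groups. Keap1 was higher in D3 lungs by 0.35 ± 0.16 (adjusted p = 0.61), where the values were 1.28, 1.21, 1.17 and 1.30 against 0.92, 0.63, 1.27 and 0.74 at D0. Its differences at D1, D2 and D3 were -0.06, 0.07 and 0.04 in liver and -0.24, 0.06 and -0.05 in forestomach.

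No glutathione gene passed the test at any dose, and the direction of the means differed between tissues. Gclc in lung differed from D0 by 0.07, 0.00 and 0.17 at D1, D2 and D3, and Gclm by 0.17 ± 0.13, 0.38 ± 0.12 and 0.22 ± 0.12 (adjusted p = 1, 0.97 and 0.69). For Gclm the vehicle lungs lay between -0.63 and -0.27, and 3 of the 4 D2 lungs and 2 of the 4 D3 lungs lay above them. Within slides its lung value was higher than vehicle on 4 of 4 at D2 (0.17 to 0.66) and at D3 (0.02 to 0.51). In liver, where Gclm was highest, its means were lower than at D0 at every dose, by -0.35, -0.23 and -0.33 on the log2 scale (adjusted p = 1, 0.74 and 0.72), with D3 livers at 2.59, 2.08, 1.53 and 2.41. Without mouse 9 the D1 difference was -0.06, without mouse 8 it was -0.64, and without mouse 19 that at D3 was -0.12. The Gclc means in liver were also below D0 at every dose, by -0.01, -0.52 and -0.11. Liver Gclc at D2 was at 2.95, 1.86 and 2.57 against 3.12, 2.58, 3.09 and 3.12 at D0. The D2 difference of -0.52 ± 0.22 (adjusted p = 0.44) was -0.22 without mouse 12.

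In forestomach the largest difference of a glutathione gene was that of Gclc at D1. Vehicle values were 0.08, 0.62, 0.92 and 0.04 and D1 values 1.45, 1.37 and 1.45, so that the groups did not overlap. The difference was 1.01 ± 0.33 (adjusted p = 0.30), and those at D2 and D3 were 0.50 and 0.35. Glandular markers were high in all 3 D1 arrays. Over all doses Gclc lay between 0.04 and 0.58 in arrays low in those markers and between 0.55 and 1.55 in arrays high in them, and with the score as a covariate the D1 difference was 0.54. Slc7a11, measured well above background on 6 of 14 forestomach arrays, differed from D0 by 0.06, -0.30 and 0.15 (adjusted p = 0.93, 0.76 and 1). At D2 it was well above background on 0 of 4 arrays, so that difference has no measured D2 level behind it.

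Srxn1 and Txnrd1, which keep the peroxiredoxin and thioredoxin cycle going, both had higher means in exposed lungs. For Srxn1 the vehicle lungs were at -0.80, -0.38, -0.92 and -0.91 and the D3 lungs at -0.20, -0.18, -0.36 and -0.41, and only D3 mouse 20 fell below the highest vehicle lung. The Srxn1 difference was 0.24, 0.33 and 0.47 ± 0.17 at D1, D2 and D3 (adjusted p at D3 = 0.47), with a 95% interval of 0.11 to 0.82 at D3, and it was positive within 4 of 4 slides at D3 (0.20 to 0.60). The highest D2 lung, 0.10, was again that of mouse 12, without which the D2 difference was 0.16. Txnrd1 in lung differed by 0.10, 0.16 and 0.28 ± 0.13 (adjusted p = 0.61 at D3), and 2 of the 4 D3 lungs, those of mice 17 and 19, lay below the highest vehicle lung. In liver Txnrd1 differed by -0.01, 0.17 and 0.12, and Srxn1 by 0.08, 0.36 and 0.12, with mouse 12 highest at 0.82 for Srxn1. In forestomach Txnrd1 was higher at D1 by 0.55 ± 0.28 (adjusted p = 0.44), which became 0.25 with the glandular score as a covariate, and Srxn1 by 0.18 ± 0.17 (adjusted p = 0.69).

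**Figure D4:**
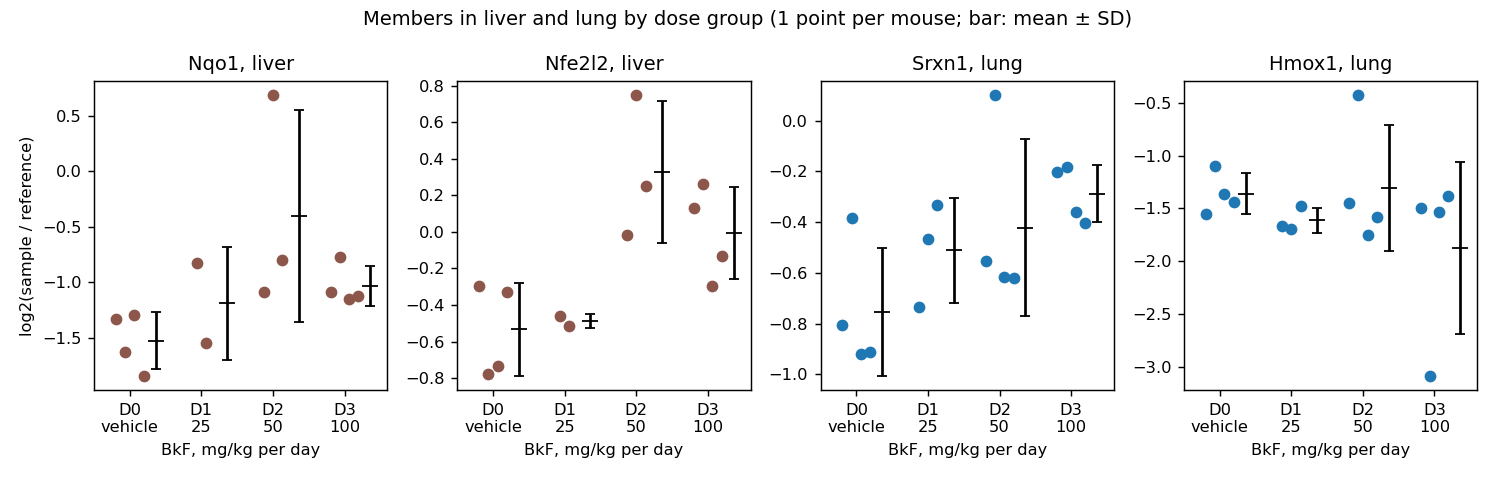
Log2 ratio to the reference by dose of Nqo1 and Nfe2l2 in liver and of Srxn1 and Hmox1 in lung, with 1 point per mouse and a bar for the mean ± SD of each group. The D2 liver of mouse 12 (0.69 for Nqo1, 0.75 for Nfe2l2) and the D3 lung of mouse 17 (-3.09 for Hmox1) lie away from their groups.

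Hmox1 was the member with the largest differences in forestomach, and they pointed down. Vehicle values were 1.38, 0.75, 0.72 and 1.20, D1 values -1.54, -1.10 and -0.41, D2 values 0.33, -1.95, -0.16 and -0.94, and D3 values 0.45, -0.64 and 1.24. All D1 and D2 arrays lay below the vehicle arrays, as for 9.21% of probes at D1 and 2.16% at D2, while the D3 group overlapped with them. The differences were -2.03 ± 0.52 (adjusted p = 0.26), -1.69 ± 0.48 (adjusted p = 0.48) and -0.66 ± 0.52 (adjusted p = 1). Fitted with D0 alone, D1 was called (adjusted p = 0.028), in a fit that called 333 of 25305 probes, 295 of them lower, against 0 in the fit of all doses. The second Hmox1 probe gave smaller differences, -0.52, -0.68 and -0.47 (adjusted p 0.55 to 1). Hmox1 was between 0.33 and 1.38 in the 5 arrays low in glandular markers and between -1.95 and 0.75 in the 9 arrays high in them. With the score as a covariate the differences were -1.41 (adjusted p = 0.76), -1.34 (0.55) and -0.78 (0.99).

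**Figure D5:**
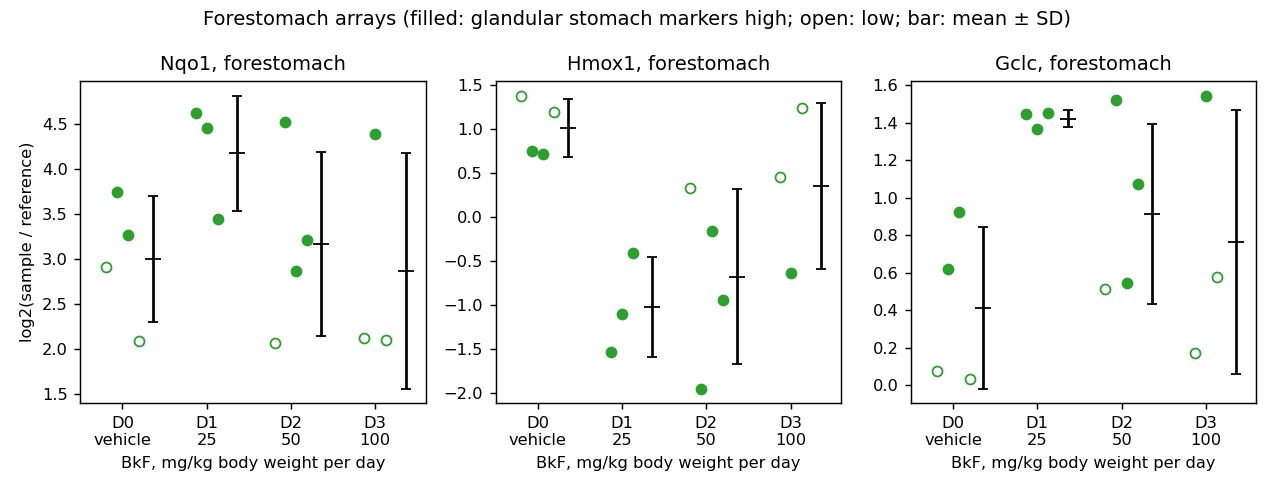
Log2 ratio to the reference of Nqo1, Hmox1 and Gclc in forestomach by dose, with filled points for the 9 arrays high in glandular stomach markers, open points for the 5 arrays low in them, and a bar for the mean ± SD of each group. All 3 D1 arrays are filled, and within D0, D2 and D3 the filled points lie higher for Nqo1 and Gclc and lower for Hmox1.

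In liver Hmox1 was low at every dose. It lay between -2.52 and -1.86 in all livers, with differences of -0.29, 0.02 and -0.14 (adjusted p = 1, 0.98 and 0.85). In lung the vehicle values were -1.55, -1.09, -1.36 and -1.44, the D1 values -1.67, -1.70 and -1.48, the D2 values -1.45, -0.43, -1.75 and -1.59, and the D3 values -1.49, -3.09, -1.53 and -1.39. At D1 2 of 3 lungs and at D2 2 of 4 lay below all vehicle lungs, while the D2 lung of mouse 12 lay above them, and the differences were -0.25 and 0.06 (adjusted p = 1). The D3 difference of -0.51 ± 0.34 (adjusted p = 0.76) rested on mouse 17, without which it was -0.11, and the second probe gave -0.09.

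The responses at D3 were compared between tissues directly. Of 9 members, 0 differed between lung and liver, where 0.0153% of all probes did, 0 between lung and forestomach (0.0122%) and 0 between liver and forestomach (0%). The Nqo1 response was larger in lung than in liver by 1.15 ± 0.65 on the log2 scale (95% interval -0.16 to 2.47, adjusted p = 0.99) and larger than in forestomach by 1.78 ± 0.68 (0.40 to 3.15, adjusted p = 0.98). The latter was 2.53 without the D3 forestomach of mouse 17, the single D3 array high in glandular and hepatocyte markers, and 1.39 without that of mouse 20. For Aldh3a1 the lung response exceeded that of liver by 0.87 (0.14 to 1.60, adjusted p = 0.89). These intervals are wide, and they do not show that the tissues respond alike. None of the members' D3 values in forestomach lay apart from D0, 0 of 10 being higher in every array, against 1.79% of all probes.

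Beyond the members, genes of the pathway were counted in 3 lists. The lists were chosen with earlier results of these data known, so their counts describe them and do not test for an excess. Of 34 further Nrf2 targets, not divided by whether the AhR also drives them, 33 had a probe. In lung at D3, 28 had a higher and 5 a lower mean than D0, with a median difference of 0.19 against 0.0039 over all probes, 6 were higher and 1 lower at an unadjusted p below 0.05 (8.02% of all probes passed it), and 1 was called, where 0.0336% of all probes were. That gene was Ces1g, a carboxylesterase, which rose from 1.44 ± 0.24 to 2.93 ± 0.20 (SD, n = 4 each), a difference of 1.49 ± 0.23 (adjusted p = 0.039). Its call was kept in 8 of 16 alternatives, with adjusted p from 0.0064 to 0.22. It ended with the ratios of the scanner software (1.06, adjusted p = 0.20) and without any of lung mice 1, 2, 3, 4, 16, 17 or 20 (1.37 to 1.55, adjusted p 0.083 to 0.22). Gsta2, a glutathione transferase, differed by 0.49 (adjusted p = 0.84). Sqstm1, the autophagy receptor p62, which competes for Keap1, was lower by -0.56 ± 0.19 (adjusted p = 0.43), with all 4 D3 lungs below all vehicle lungs, as for 2.38% of all probes.

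In liver at D3, 13 of these 33 targets were higher and 20 lower (median -0.06, 0 called). At an unadjusted p below 0.05, 4 were higher and 0 lower, where 7.8% of all probes passed. Gpx2, a glutathione peroxidase, was at 0.71 and Osgin1, an oxidative stress induced growth inhibitor, at -0.34. Gstp1, a glutathione transferase, was at -0.63 (adjusted p of the 3 genes 0.67 to 0.85). In forestomach 21 were higher and 12 lower (median 0.05, 0 called), with Mafg, a small Maf partner of Nrf2, at 0.55, Gsta3 at 0.40, G6pdx, an NADPH source, at -0.33 and Gsta2 at -0.58 (adjusted p = 1). At D1 in forestomach, where all arrays carried glandular markers, 9 were higher and 4 lower at an unadjusted p below 0.05, and at D2 in liver 9 were higher and 2 lower. Of all probes 3070 of 25305 and 3261 of 30449 passed that limit in these comparisons. The 6 further regulators and the 8 other antioxidant enzymes had 0 called genes in every tissue at every dose, with medians at D3 of -0.05 and 0.11 in lung, 0.04 and -0.05 in liver and -0.14 and -0.04 in forestomach. In the last list Gpx3, a secreted glutathione peroxidase, was highest in liver at 1.06 ± 0.62 (adjusted p = 0.71), and all 4 D3 livers lay above the vehicle livers, the pattern shown by 2.96% of all probes. Cul3, the ubiquitin ligase scaffold that works with Keap1, differed by -0.26 in lung (adjusted p = 0.61).

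Over the 9 dose differences (3 doses in each of 3 tissues), the pattern of Nqo1 was set beside that of 12170 genes tested in all tissues, with the mean absolute difference of the log2 changes as the measure of likeness. Closest was Neurl3 (0.27), then the AhR target Tiparp (0.33), Gsdme (0.37), Tmem213 (0.39) and Myl3 (0.39). The D3 changes of Neurl3 in lung, liver and forestomach were 1.29, 0.66 and 0.35, against 1.65, 0.49 and -0.13 for Nqo1, and those of Tiparp 1.67, 0.60 and 0.24. Among the members Nfe2l2 came nearest at rank 181 (0.61), followed by Aldh3a1 at 271, Srxn1 at 309 and Txnrd1 at 727, while Hmox1 was at 12144. The other AhR targets lay at the far end, with Ahrr at rank 12131, Cyp1b1 at 12168 and Cyp1a1 last at 12170. The 9 changes share 4 vehicle arrays within each tissue, and genes with small changes everywhere also score as near. Genes with much larger changes than Nqo1 score as far even where the direction is the same.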

How the data were processed

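RNA of lung, liver and forestomach was hybridised in Cy5 on 42 arrays (Agilent) against a common Cy3 reference, with no dye swap. Per the file headers, spot intensities were read with Feature Extraction 10.7.3.1 (lung, forestomach) or 11.0.1.1 (liver), and the deposited flags and log10 ratios were made by that software. The log2 table of the authors' processed values correlated with the scanner values in lung (r 0.9971 to 0.9988) and forestomach (0.9945 to 0.9989), but not in liver (-0.00301 to 0.000338), so it was used as an alternative for lung and forestomach alone. The correlations are across probes within an array.

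Here log2 ratios of the median intensities were loess-normalised within each array without background subtraction (limma 3.58.1, R 4.3.3), control spots and outlier spots were left out, and spots of a probe were averaged. Of 55681 probes 27224 carried a gene symbol. A probe was kept where the red signal cleared the background limit on a number of arrays no smaller than the tissue's smallest group (32695 in lung, 30449 in liver, 25305 in forestomach). The study's methods used MAANOVA, and limma took its place. All p-values are from limma models across all kept probes with Benjamini-Hochberg adjustment, with the dose groups of a tissue in a single fit and all 42 arrays in the fits between tissues. A gene is shown by its brightest kept probe. A fold written "at least" sets the bright group against the dimmest measurable signal of the other group. The number of arrays limits the precision.

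The members were named, with Cyp1a1, Cyp1b1, Ahrr and Tiparp for comparison, and from the 3 wider lists the genes called at D3 in a tissue, or otherwise the pair with the largest increase and the pair with the largest decrease. In lung, where Ces1g was called, Gsta2, Cul3 and Sqstm1 fall outside that rule and were named after their values were seen. Members and lists were chosen with earlier results of these data known. The procedure was tested on simulated data.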

Additional observations from a re-analysis of the deposited data

Results flagged for a closer look

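Of 70 groups of 4 mice or more over all members, 4 held a mouse set apart from the others by the gap of its value. Chance alone gives about 1 in 20 such groups. The 70 include groups of Slc7a11, which was not well above background on most arrays. Hmox1 in the D3 lung of mouse 17 was -3.09 on the log2 scale, where the nearest of the other 3 lungs was -1.53. On the second Hmox1 probe the D3 lungs were at -1.12, -1.51 (mouse 17), -1.55 and -0.94, so that mouse 17 was not the lowest. The D2 lung of mouse 12 was set apart for 2 members, with Gclc at 1.80 (nearest 2.48) and Srxn1 at 0.10 (nearest -0.55), and this is the array with high skeletal muscle, squamous and macrophage markers. Gclc in the vehicle liver of mouse 2 was 2.58, where the nearest value was 3.09.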

How the results depend on the processing

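The count of 0 members called became 1 in a few settings. With slide as a block it was 1 (Nqo1) at D2, at D3 and for the trend in lung, where it called 11, 26 and 22 of all 32695 probes. With only the 2 groups compared in the fit it was 1 (Nqo1) at D3 in lung (15 of 32695 probes) and 1 (Hmox1) at D1 in forestomach (333 of 25305 probes). Leaving out 1 mouse gave 0 to 1 at D2 in liver, where Nfe2l2 was called without mouse 11, and 0 at D1, D2 and D3 elsewhere. Between vehicle tissues the counts were 5 to 7, 7 to 8 and 8 for lung against liver, lung against forestomach and liver against forestomach, and 4 to 6, 7 to 8 and 7 to 8 without 1 mouse each. With mouse as a replicate block, which pairs tissues of the same animal, these counts stayed at 6, 7 and 8, those of the differences in response at 0, and no call of a member changed (correlation within mice 0.0611 to 0.0827). The dose groups hold different mice, so dose comparisons were blocked by slide and not by mouse. Of 2825 values of single members under other settings, 2667 kept direction and side of the threshold, 11 lost and 13 gained a call, and 134 uncalled changes crossed 0. Gained calls between vehicle tissues were those of Keap1 between lung and forestomach without forestomach mouse 3 (0.61), of Slc7a11 there with the scanner software's ratios (-1.50) or without lung mouse 2 (-0.59), and of Hmox1 between lung and liver in a fit of those tissues (0.79, adjusted p = 0.016) or with the scanner software's ratios (0.95).

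Over all probes the counts of calls were less stable. They ranged from 0 to 333 at D1 in forestomach (0 in the fit reported), from 0 to 5 and 0 to 1 at D1 in liver and lung (0), from 0 to 159 at D2 in liver (13), from 0 to 11 at D2 in lung (5), from 2 to 46 at D3 in liver (16) and from 3 to 26 at D3 in lung (11). The trend gave 0 to 10 in liver (0) and 1 to 27 in lung (12). Differences in response gave 1 to 14 between lung and liver (4), 1 to 3 between lung and forestomach (3) and 0 to 2 between liver and forestomach (0). The scanner software's ratios moved the median of all probes between vehicle tissues to 0.20 for lung against forestomach (0.03 in the fit reported) and to 0.10 for liver against forestomach (-0.01). Leaving out lung mice 7 and 12 together, or vehicle forestomachs 2 and 3, was chosen after seeing the data. The causes of these shifts were not tested. Signal over background limits what can be said of Slc7a11, and groups of 2 to 4 mice limit the rest.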
